A study of Mus musculus with 158 samples.

Results

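The hairpins against Nras, Braf and Dusp4 were followed in a pooled short hairpin RNA (shRNA) screen of metastatic pancreatic cancer cells. An shRNA is a small RNA, expressed here from an integrated virus, that lowers the mRNA of the gene it is designed against. The members were all hairpins whose listed target was 1 of these 3 genes, 10 of 1000 targeting hairpins and 3 of 285 genes. Nras had 3 hairpins, Braf 3 and Dusp4 4. The files pair Nras with NM_010937 and Dusp4 with NM_176933, which carry the same symbols in RefSeq, and Braf with XM_355754, for which no accession matched, so Braf is named by its symbol in the files.

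The cells were PDA530 Met, a mouse pancreatic adenocarcinoma line from a liver metastasis. Each pool of hairpins was delivered as virus at a low dose, infected cells were selected with puromycin, and the cells of a pool were then split into 3 arms. The day 0 arm was the cells before injection, the culture arm was cells grown in vitro to day 28, and the lung arm was tumours taken 28 days after injection into the tail vein of 3 mice per pool. All tumours of a mouse were combined into 1 lung sample, so a lung value is an average over every tumour of that mouse. Injection into a vein places cells directly in the circulation, so this model does not include their escape from a primary tumour. All arms carried the virus and the puromycin selection, and no arm was free of hairpins. Neither the mRNA nor the protein of the targeted genes was measured in these data, so the knockdown by each hairpin is unknown here.

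The RAS to ERK pathway, also called the MAPK pathway, carries growth signals from the cell surface to the nucleus. RAS proteins are small GTPases that switch on RAF kinases, RAF kinases activate MEK, and MEK activates ERK. Nras encodes a RAS protein, and Braf encodes a RAF kinase. Dusp4 encodes a dual-specificity phosphatase of the nucleus that removes the activating phosphates from ERK and related kinases, and it is itself switched on by ERK signalling.

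The members lay in 6 pools, and each was read in the libraries of its own pool. Pool 6 held Nras TRCN0000034390, and pool 16 held Nras TRCN0000348697 and TRCN0000351826. Pool 2 held Braf TRCN0000022593, and pool 4 held Braf TRCN0000054345 and TRCN0000054346. Pool 9 held Dusp4 TRCN0000054348, TRCN0000054349 and TRCN0000054351, and pool 11 held Dusp4 TRCN0000054350. These pools had 51 to 54 targeting hairpins each. Every pool had 3 day 0 libraries. There were 3 culture libraries per pool, except for 6 in pool 9 and 5 in pool 16, and 3 lung libraries, except for 2 each in pools 9 and 16. Most culture libraries were labelled with 2 pools, such as 4/5. Hairpins of a pool share their libraries, and nothing in the labels says that the day 0 libraries came from separate infections, so the spread at day 0 may be technical.

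The day 0 libraries of these pools held between 4122499 and 13226329 reads. Culture libraries held between 4525346 and 26068466, and lung libraries between 58189 and 9448986. Lung library 6A was the shallowest, with 40555 reads of its own pool's targeting hairpins. In lung library 6C 25.5% of reads were of its own pool's targeting hairpins, against 69.7% in 6A and 70.5% in 6B. Lung library 16D stood apart more strongly. It held 6280972 reads, of which 0.677%, or 42538 reads, were pool 16 targeting hairpins, against 75.9% in lung library 16E. Results of the pool 16 hairpins in lungs are given with and without it. PCR reads without molecular identifiers are not independent molecules, so read numbers understate the error of a value.

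Levels are given as CPM, the usual unit for reads brought to a fixed library total, here over the targeting reads of the hairpin's own pool after TMM scaling, a method that sets the bulk of the hairpins equal between libraries. A change is a log2 fold change of CPM + 1, and it was tested with limma per pool. The call was a Benjamini-Hochberg adjusted p under 0.05, adjusted over all hairpins of all pools. All fold changes are therefore relative to the other targeting hairpins of the same pool, not absolute growth. Whether arms overlap is stated for these CPM. In unscaled shares of the pool's targeting reads, culture overlapped day 0 for Nras TRCN0000351826, Braf TRCN0000054346 and Dusp4 TRCN0000054349, and lungs overlapped day 0 for Dusp4 TRCN0000054348 and TRCN0000054349. The choice of scaling matters: the median change of all hairpins between day 0 and lungs was -0.13 with TMM, -0.73 with pool read totals, -0.57 with the control hairpin total and -0.82 with the deposited values. For culture against day 0 these medians were -0.10, -0.64, -0.99 and -0.89, and for lungs against culture -0.11, -0.26, 0.30 and -0.13.

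**Figure D1:**
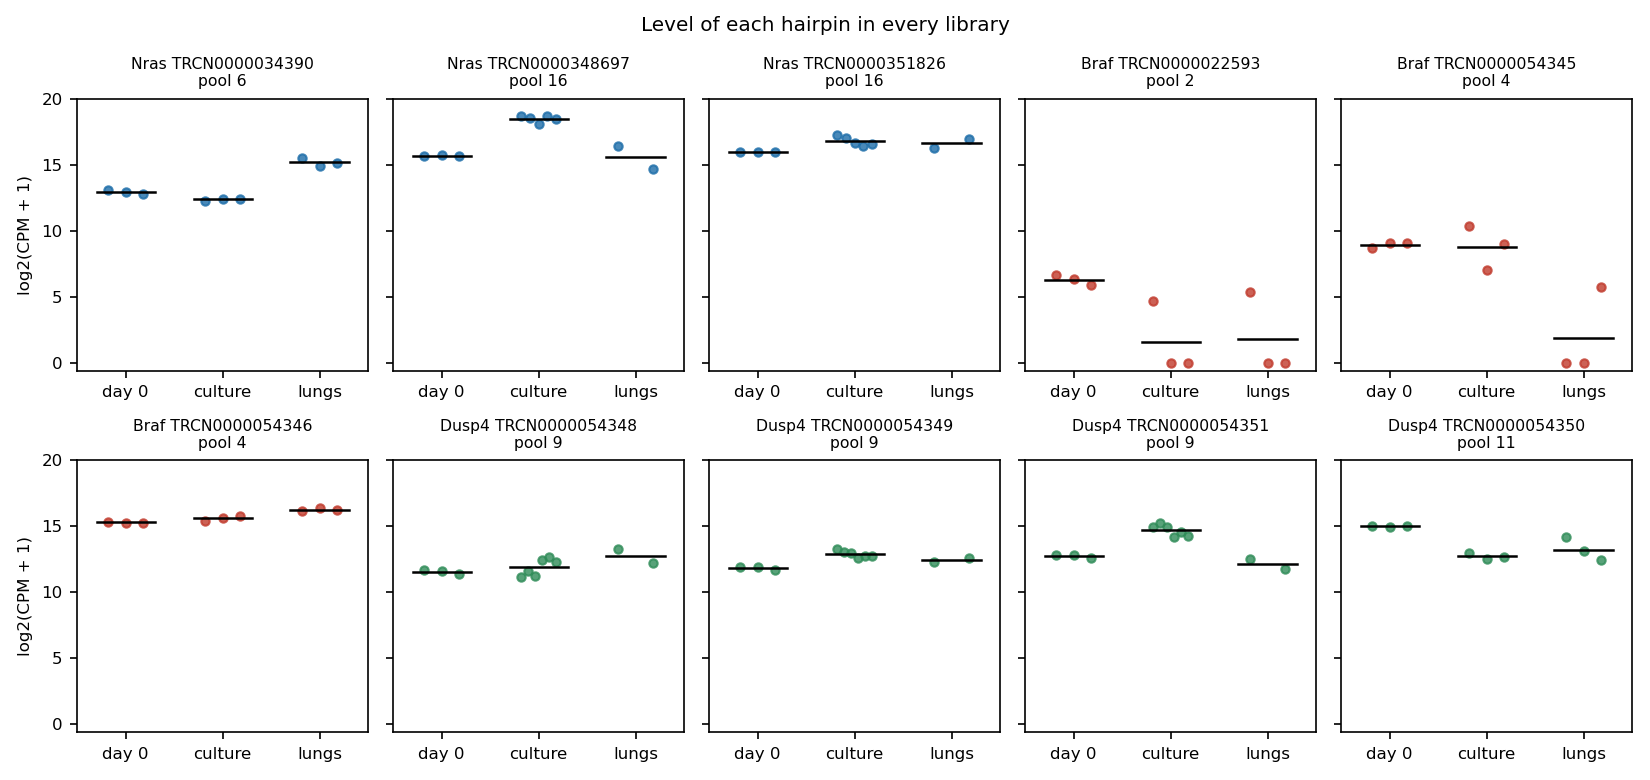
Level of each of the 10 hairpins in every library of its own pool, as log2(CPM + 1) on a linear axis, with 1 point per library and a black line at the mean of each arm. The Nras hairpin TRCN0000034390 is highest in lungs, and TRCN0000348697 is highest in culture. In some day 28 libraries 2 Braf hairpins had no value and are placed at 0.

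At day 0 the hairpins started from very different levels. The most abundant were the Nras hairpins of pool 16: TRCN0000351826 ranked 2 of 54 with a mean share of 8.83% of the pool's targeting reads, and TRCN0000348697 ranked 3 with 7.33%, where the median hairpin of that pool had 0.93%. Braf TRCN0000054346 ranked 7 of 51 with 4.67%, and Dusp4 TRCN0000054350 ranked 9 of 52 with 3.64%. The other Dusp4 hairpins, TRCN0000054351, TRCN0000054349 and TRCN0000054348, ranked 31, 41 and 43 of 52 in pool 9, with shares from 0.96% down to 0.42%. Nras TRCN0000034390 ranked 34 of 52 with 0.95%. The 2 other Braf hairpins were rare from the start: TRCN0000054345 ranked 46 of 51 with 0.058%, and TRCN0000022593 ranked 51 of 52 with 0.0092%. Both had no value in some day 28 libraries, counted as 0 reads, beside at least 728 reads in each day 0 library.

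The first comparison asked which hairpins changed from injected cells to lung tumours. Of the 10 members, 5 passed the test: Nras TRCN0000034390, Braf TRCN0000054346 and Dusp4 TRCN0000054348 rose, and Braf TRCN0000054345 and Dusp4 TRCN0000054350 fell. Over all 891 hairpins tested, 14.7% were called higher and 19.1% lower. The median change of the members was 0.30, beside -0.13 over all hairpins. It lay above that of all hairpins with pool read totals as well. Scaled on the control hairpins and for the deposited values it lay below, where the medians over all were -0.57 and -0.82. No gene had all of its hairpins called in the same direction. The count was 6 with pool read totals, 3 of them higher, where 83 of 340 calls over all hairpins were higher. It was 3 when scaled on the control hairpins or for the deposited values, 1 of them higher in each, where 108 of 236 and 78 of 256 calls over all were higher. Without the day 0 libraries lettered A, B or C it was 2, both higher, and the calls over all hairpins fell too, from 301 to 148, 154 and 160. Without the lung libraries lettered D it was 7, where calls over all hairpins rose to 336; both added calls are of pool 16 hairpins, which then have 1 lung library left.

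The second comparison asked what the same period in culture did. Of the 10 members, 8 were called: 5 rose (Nras TRCN0000348697 and TRCN0000351826, Braf TRCN0000054346, Dusp4 TRCN0000054349 and TRCN0000054351) and 3 fell (Nras TRCN0000034390, Braf TRCN0000022593 and Dusp4 TRCN0000054350). Over all 945 hairpins, 28.8% were called higher and 31.9% lower, so calls were common in culture generally. The median of the members was 0.38, beside -0.10 over all hairpins. With pool read totals, the control hairpins or the deposited values as the scale it was negative, but still above that of all hairpins. With pool read totals 5 were called, 2 of them higher, scaled on the control hairpins 6, 2 of them higher, and for the deposited values 7, 3 of them higher. Over all hairpins 163 of 615, 100 of 623 and 130 of 632 calls were higher in these scalings, against 272 of 573 with TMM, so fewer of the calls over all hairpins were higher as well.

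The third comparison set lungs directly against culture. There 4 of the 10 members were called: Nras TRCN0000034390 and Braf TRCN0000054346 were higher in lungs, and Nras TRCN0000348697 and Dusp4 TRCN0000054351 were lower. Over all 889 hairpins, 11.6% were called higher and 13.3% lower. The median of the members was 0.15, beside -0.11 over all. The comparisons with day 0 share their day 0 libraries, so the hairpins' values in them are not independent.

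**Figure D2:**
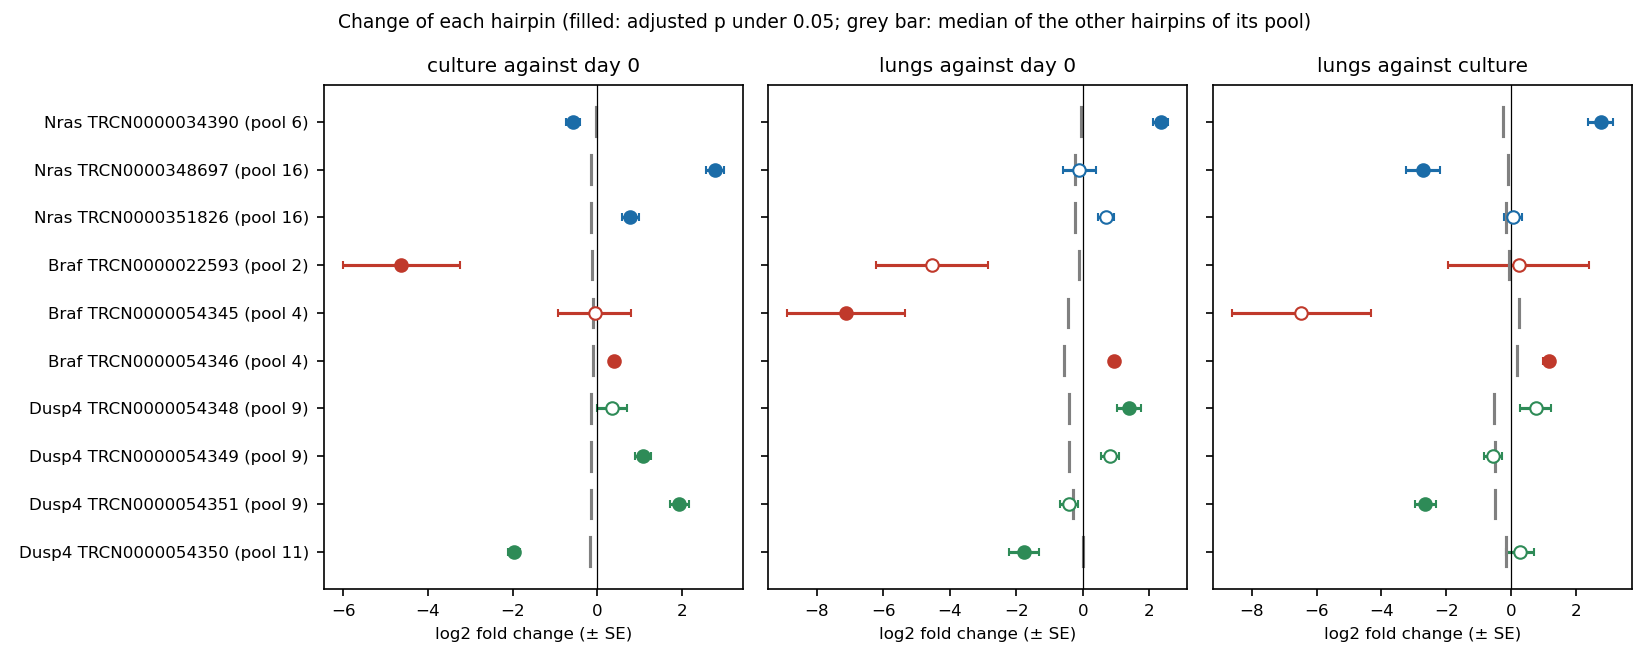
Log2 fold change of each hairpin in the 3 comparisons, with bars of 1 SE from limma; filled points have an adjusted p under 0.05, and grey bars mark the median change of the other targeting hairpins of the same pool. Nras TRCN0000034390 is above 0 in both lung comparisons and below 0 in culture, and Dusp4 TRCN0000054350 is below 0 against day 0 in both arms.

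Nras came first, as the RAS gene among the members. Its hairpin TRCN0000034390 in pool 6 stood at 8559, 7994 and 7271 CPM in the 3 day 0 libraries. In culture it was at 5019, 5566 and 5505 CPM. In lungs it was at 47723, 31217 and 36428 CPM. Every lung library was above every library of the other arms, and every culture library was below every day 0 library. The rise in lungs from day 0 was 2.35 on the log2 scale (SE 0.22, limma adjusted p = 0.000244), or 5.09-fold, larger than for 49 of the 50 other hairpins tested in the pool, whose median was -0.05.

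The same hairpin fell in culture by 0.56 (SE 0.17, limma adjusted p = 0.0105), and it was 2.77 higher in lungs than in culture (SE 0.38, limma adjusted p = 1.64e-06). In the latter, limma's prior degrees of freedom for the pool were 30, so that small p rests largely on the spread of the other hairpins. The lung value in 6A came from 1730 reads, that in 6B from 6129 and that in 6C from 56664. Without the lung libraries lettered A the rise from day 0 was 2.06 (limma adjusted p = 0.000164) and the difference from culture was 2.71 (limma adjusted p = 7.17e-06). With the control hairpin total as the scale the rise was 0.82 (limma adjusted p = 0.542), with the deposited values it was 1.04 (limma adjusted p = 0.307), and the difference from culture with the control total was 2.39 (limma adjusted p = 0.0676), so these calls ended. The fall in culture kept its sign in these scalings, at -1.58 and -1.29, and lost its call without the day 0 libraries lettered A or B (limma adjusted p = 0.0758 and 0.0572).

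The pool 16 hairpin Nras TRCN0000348697 went the other way. At day 0 it was at 53466, 54247 and 52252 CPM. In the 5 culture libraries it was at 426589, 387439 and 283644 CPM in 16/17A to C and 436270 and 359953 CPM in 16D and 16E. In unscaled shares this was 24.3% to 36.3% of the pool's targeting reads in culture, beside 7.20% to 7.44% at day 0. All culture libraries were above all day 0 libraries, and the rise was 2.77 (SE 0.22, limma adjusted p = 6.18e-07), higher than for all 53 other hairpins of the pool. It was 1.99 with pool read totals, 2.10 scaled on the control hairpins and 2.02 for the deposited values, all called.

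In lungs TRCN0000348697 was at 88836 CPM in 16D and 27019 CPM in 16E, on opposite sides of the day 0 values. The change from day 0 was -0.10 (SE 0.49, limma adjusted p = 0.899), and scaled on the control hairpins it was -3.47 (limma adjusted p = 0.356) and for the deposited values -3.12 (limma adjusted p = 0.31). It was -0.93 without 16D and 0.74 without 16E, so the lung libraries lay on opposite sides of day 0. limma called both (adjusted p = 0.00011 and 1.75e-05), but with 1 lung library left the spread comes from day 0 alone and the lone library is assumed to vary like those. Both lung libraries were below every culture library, and lungs were lower than culture by -2.72 (SE 0.53, limma adjusted p = 0.00477), the lowest of the 54 hairpins of the pool. That difference was -3.79 without 16D (limma adjusted p = 3.8e-06) and -1.65 without 16E (limma adjusted p = 0.00841). Scaled on the control hairpins it was -5.57 and for the deposited values -5.14, both called.

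The third Nras hairpin, TRCN0000351826, was measured in the same libraries of pool 16. It was at 62943, 65197 and 64401 CPM at day 0. In culture it was at 158969, 132021, 103038, 88174 and 98481 CPM, and in lungs at 80202 CPM in 16D and 129355 CPM in 16E. Both later arms were above day 0 without overlap, and lungs and culture overlapped. The rise in culture was 0.78 (SE 0.20, limma adjusted p = 0.00479), but 0.00 with pool read totals, 0.11 when scaled on the control hairpins and 0.03 for the deposited values, none of them called. The change in lungs was 0.69 (SE 0.25, limma adjusted p = 0.0849). It was 1.06 without 16D and 0.32 without 16E, each with 1 lung library left. With pool read totals it was 0.42 (limma adjusted p = 0.0488), scaled on the control hairpins -2.68 and for the deposited values -2.33, neither of the latter called. Lungs against culture gave 0.06 (SE 0.28, limma adjusted p = 0.909), and 0.19 without 16D (limma adjusted p = 0.733).

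The ratio of the 2 Nras hairpins of pool 16 does not depend on the scaling. Its log2 value, TRCN0000348697 over TRCN0000351826, was -0.27 ± 0.03 at day 0 (SD, n = 3), 1.72 ± 0.37 in culture (SD, n = 5) and -1.06 ± 1.70 in lungs (SD, n = 2). Culture exceeded day 0 by 1.99 (exact permutation test, two-sided p = 0.03571, the smallest this design can give). After Benjamini-Hochberg adjustment over the 15 ratio tests of the 5 pairs of hairpins, the exact permutation p was 0.1786, and 0 of the 15 tests had an adjusted p under 0.05. Lungs were lower than culture by -2.78, by -3.98 without 16D and by -1.58 without 16E, and they differed from day 0 by -0.79, by -1.99 without 16D and by 0.41 without 16E. The 2 hairpins of 1 gene therefore moved apart in culture in all 5 libraries, in a design too small to pass this adjustment.

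Braf, the RAF kinase, was represented by 1 abundant and 2 rare hairpins. The abundant TRCN0000054346 in pool 4 was at 41905, 39814 and 39706 CPM at day 0, at 44215, 50343 and 57051 CPM in culture, and at 72495, 85084 and 77504 CPM in lungs. The 3 arms did not overlap, with lungs highest. The rise in lungs from day 0 was 0.95 (SE 0.13, limma adjusted p = 0.0042), or 1.93-fold, larger than for 39 of the 50 other hairpins, and it was called in each of the 16 alternatives that bear on this pool, at 0.75 to 1.11. Lungs exceeded culture by 1.17 (SE 0.18, limma adjusted p = 0.00297), which was 0.87 without the culture libraries lettered A (limma adjusted p = 0.175) and 0.66 without the lung libraries lettered C (limma adjusted p = 0.0139).

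The smaller difference of TRCN0000054346 between culture and day 0, at 0.41 (SE 0.08, limma adjusted p = 0.00247), had no settled direction. It was -0.11 with pool read totals (limma adjusted p = 0.401), -0.58 with the control total (limma adjusted p = 0.00267) and -0.46 with the deposited values (limma adjusted p = 0.0066). Without the culture libraries lettered B it was 0.26 (limma adjusted p = 0.0366), and without those lettered C it was 0.24 (limma adjusted p = 0.0685).

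Braf TRCN0000054345, in the same pool, was at 425, 531 and 539 CPM at day 0 and at 1310, 131 and 517 CPM in culture. In lungs it had no value in 4A and 4B, counted as 0 reads, and 210 reads, or 52.7 CPM, in 4C. A count of 0 at the depth of 4A and 4B allows up to 0.798 and 0.715 CPM, counting 3 reads as the limit. That limit takes reads as independent, so the true one may be higher. All lung libraries were below all others, while the culture libraries lay on both sides of day 0. The change in lungs from day 0 was -7.11 (SE 1.77, limma adjusted p = 0.0286), a value that depends on the pseudocount because 2 libraries are at 0. edgeR and DESeq2 on the reads gave -4.82 for both (adjusted p = 0.184 and 0.109), and limma with a pseudocount of 10 gave -4.85 (adjusted p = 0.00832). The limma call ended without any 1 of the 3 day 0 letters, at -7.22 to -7.03 (adjusted p = 0.0968 to 0.11), or without 4A, at -6.10 (adjusted p = 0.0559). Without 4C, the one lung library with reads, the change was -9.08 (limma adjusted p = 0.000513). That lung arm had 0 reads throughout and no spread, so the pseudocount sets the value. Culture against day 0 was -0.06 (SE 0.86, limma adjusted p = 0.967), and lungs against culture was -6.47 (SE 2.15, limma adjusted p = 0.0679). The difference between lungs and culture was called with a pseudocount of 10, at -4.25 (limma adjusted p = 0.0493). It was also called without 4C, at -8.67 (limma adjusted p = 0.0153), again from an arm at 0 reads. It was not called by edgeR or DESeq2, at -4.84 for both (adjusted p = 0.236 and 0.107). Without 4A or 4B it was -5.50 and -5.49, and without 4/5A, 4/5B or 4/5C -5.66, -7.38 and -6.43, none called.

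The rarest member, Braf TRCN0000022593 in pool 2, was at 98.8, 83.1 and 59.9 CPM at day 0, from 728, 809 and 794 reads. In culture it had 206 reads in 1/2A, 25.2 CPM, and no value in 1/2B and 1/2C, counted as 0 reads. By the same limit this allows up to 0.712 and 0.622 CPM. In lungs it had 307 reads in 2A, 41.6 CPM, and no value in 2B and 2C, counted as 0 reads. This allows up to 2.96 and 1.23 CPM. Every day 28 library was below every day 0 library. The fall in culture was called, at -4.63 (SE 1.38, limma adjusted p = 0.00516), but not by edgeR, at -2.98 (adjusted p = 0.138), or DESeq2, at -3.00 (adjusted p = 0.155). Without 1/2A, the one culture library with reads, it was -6.32 (limma adjusted p = 5.78e-07), from an arm with 0 reads throughout and no spread. Without 1/2B or 1/2C the fall was -3.84 (limma adjusted p = 0.0295 and 0.00209). The fall in culture was also not called without the day 0 libraries lettered A or B (limma adjusted p = 0.0687 and 0.0565). It was -2.45 with a pseudocount of 10 (limma adjusted p = 0.00186) and -7.59 with the deposited values (limma adjusted p = 0.00138). The change in lungs was -4.52 (SE 1.69, limma adjusted p = 0.0679), and with pool read totals -4.77 (limma adjusted p = 0.0496). edgeR gave -2.43 (adjusted p = 0.301) and DESeq2 -2.51 (adjusted p = 0.456), and with a pseudocount of 10 it was -2.37, not called. Without 2A, the one lung library with reads, it was -6.38, from an arm with 0 reads throughout and no spread (limma adjusted p = 4.32e-14). Without 2B the change in lungs was -3.63 (limma adjusted p = 0.08), and without 2C it was -3.61 (limma adjusted p = 0.169).

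TRCN0000022593 had the lowest change of its pool in both comparisons with day 0, below all 51 others, and TRCN0000054345 had the lowest change of pool 4 in both lung comparisons, below all 50 others. These ranks come from hairpins that started near the bottom of their pools. The log2 ratio of TRCN0000054345 to TRCN0000054346, with 1 read added to each, was -6.35 ± 0.24 at day 0, -6.81 ± 1.75 in culture and -15.67 ± 4.47 in lungs (SD, n = 3 each). The difference between lungs and day 0 was -9.32 (exact permutation test, two-sided p = 0.1, the smallest possible with 3 against 3). Its size depends on the read added, because TRCN0000054345 is at 0 reads in 4A and 4B.

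**Figure D3:**
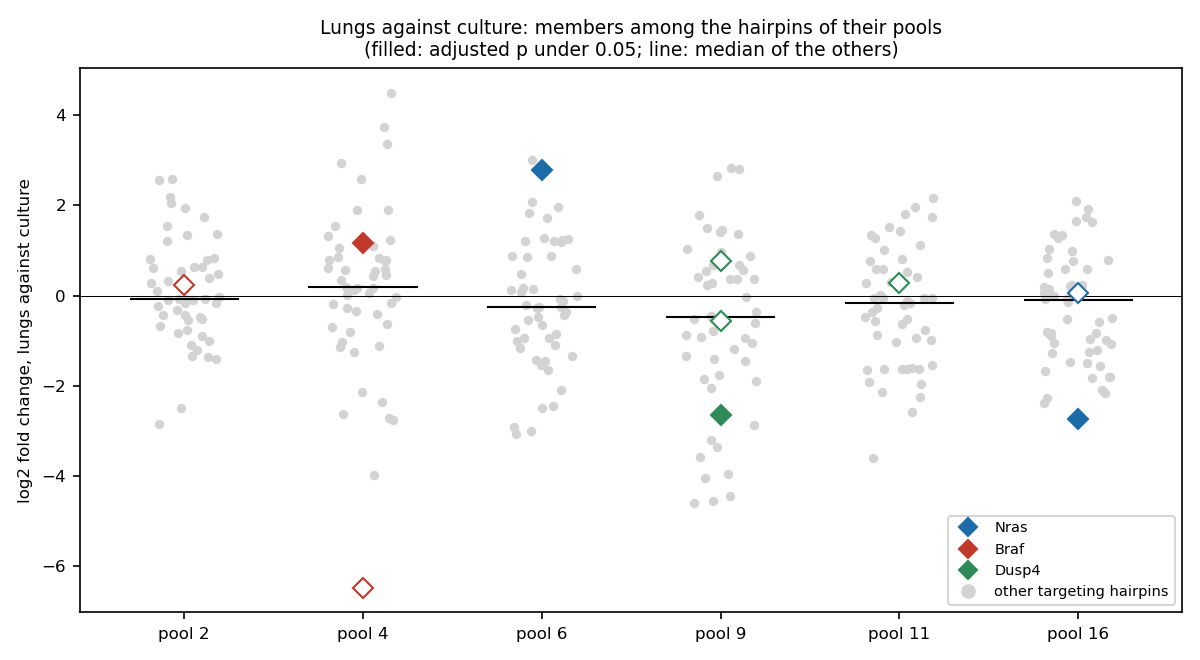
Log2 fold change of lungs against culture for every tested targeting hairpin of the 6 pools; grey points are the other hairpins, coloured diamonds the members (filled where the adjusted p is under 0.05), and black lines the median of the others. In pool 16 Nras TRCN0000348697 is the lowest point, and in pool 6 Nras TRCN0000034390 has 1 hairpin above it.

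Dusp4, the ERK phosphatase, had 3 hairpins in pool 9 and 1 in pool 11. In pool 9 TRCN0000054351 was at 7438, 7403 and 6097 CPM at day 0. Its 6 culture libraries ran from 18492 to 39328 CPM with a median of 27757 CPM, and its lung libraries were at 5870 and 3490 CPM. Culture was above both other arms without overlap, and lungs were below day 0 without overlap. The rise in culture was 1.94 (SE 0.23, limma adjusted p = 1.67e-05), above 47 of the 51 other hairpins, and 1.04 with the control total (limma adjusted p = 0.00131). Lungs were lower than culture by -2.64 (SE 0.32, limma adjusted p = 0.000207), a difference that was -3.32 to -2.18 in the 17 alternatives that bear on this pool, and called in each, though those without 9A or 9C have 1 lung library left. Lungs against day 0 gave -0.41 (SE 0.26, limma adjusted p = 0.286). That difference was -1.40 with pool read totals, -1.24 scaled on the control hairpins and -1.32 for the deposited values, none called. It was -0.69 without lung library 9A and -0.19 without 9C, each with 1 lung library left and no measured lung spread.

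Dusp4 TRCN0000054349 was at 3882, 3914 and 3303 CPM at day 0, at 6258 to 9925 CPM with a median of 7702 CPM in culture, and at 5077 and 6228 CPM in lungs. On this scale the arms did not overlap, with lungs between day 0 and culture, while in unscaled shares the lung libraries, at 0.516% and 0.389%, overlapped both other arms. The rise in culture was 1.08 (SE 0.19, limma adjusted p = 0.000411), and it lost its call with pool read totals, at 0.51 (limma adjusted p = 0.0958), and with the control total, at 0.17 (limma adjusted p = 0.486). The change in lungs was 0.81 (SE 0.27, limma adjusted p = 0.0856) and had no settled direction: it was -0.17 with pool read totals, -0.01 scaled on the control hairpins and -0.09 for the deposited values, none called. It was 1.06 without 9A and 0.52 without 9C, where the lung arm is 1 library and its spread is not measured. Lungs against culture was -0.55 (SE 0.28, limma adjusted p = 0.179), and -1.23 for the deposited values (limma adjusted p = 0.0123).

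Dusp4 TRCN0000054348 was at 3369, 3174 and 2634 CPM at day 0, at 2307 to 6743 CPM with a median of 4135 CPM in culture, and at 10000 and 4831 CPM in lungs. Lungs were above day 0 without overlap and overlapped culture. The rise in lungs was 1.40 (SE 0.36, limma adjusted p = 0.0447), near the threshold. It was not called with pool read totals, at 0.41 (limma adjusted p = 0.626), the control total, at 0.57 (limma adjusted p = 0.527), or the deposited values, at 0.49 (limma adjusted p = 0.566), nor without any 1 of the 3 day 0 letters (limma adjusted p = 0.126 to 0.147). Culture against day 0 was 0.35 (SE 0.35, limma adjusted p = 0.411). It was -0.22 with pool read totals, -0.55 scaled on the control hairpins and 0.41 for the deposited values, none called.

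The culture libraries of pool 9 came from different sequencing lanes, 8/9A to C and 9/10A to C, the latter in the lane of day 0. All 3 Dusp4 hairpins separated these sets without overlap. TRCN0000054348 was at 2307, 3189 and 2430 CPM in 8/9 and at 5522, 6743 and 5081 CPM in 9/10. TRCN0000054349 was at 9925, 8760 and 8320 CPM in 8/9 and at 6258, 7084 and 6947 CPM in 9/10. TRCN0000054351 was at 31460, 39328 and 32326 CPM in 8/9 and at 18492, 24054 and 20160 CPM in 9/10. The first was lower and the other two were higher in 8/9, and the labels name no shared culture. With the libraries of the day 0 lane alone, TRCN0000054348 rose in culture by 0.92 (limma adjusted p = 0.00158), TRCN0000054349 by 0.87 (limma adjusted p = 0.00158) and TRCN0000054351 by 1.58 (limma adjusted p = 1.93e-05). In that lane TRCN0000054351 was lower in lungs than in culture by -2.27 (limma adjusted p = 0.000725). The labels place pools 8 and 10 beside pool 9 in these sets, and the part of lane and companion pool in their difference cannot be told apart.

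In pool 11 Dusp4 TRCN0000054350 fell in both arms. It was at 32673, 32124 and 33352 CPM at day 0, at 8018, 5970 and 6641 CPM in culture, and at 18398, 8845 and 5510 CPM in lungs. Both later arms were below day 0 without overlap, and lungs overlapped culture. The fall in culture was -1.97 (SE 0.13, limma adjusted p = 3.41e-32), or 3.91-fold, and 2 of the 51 other hairpins fell further. limma's prior had no upper bound in that fit, so the size of this p does not reflect 3 libraries per arm. The fall was -2.55 with pool read totals, -2.66 scaled on the control hairpins and -2.62 for the deposited values, all called. The change in lungs was -1.76 (SE 0.44, limma adjusted p = 0.0285), which lost its call without any 1 of the 3 day 0 letters (limma adjusted p = 0.0941 to 0.0968). Lungs against culture gave 0.28 (SE 0.43, limma adjusted p = 0.651), and 1.17 scaled on the control hairpins (limma adjusted p = 0.0484) and 0.94 for the deposited values, the latter not called.

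Ratios within pool 9 show the Dusp4 hairpins against each other. That of TRCN0000054348 to TRCN0000054349 was -0.28 ± 0.06 at day 0 (SD, n = 3), -1.01 ± 0.88 in culture (SD, n = 6) and 0.31 ± 0.95 in lungs (SD, n = 2), and no difference passed a test (exact permutation test, two-sided p = 0.3095 for culture against day 0, 0.8 for lungs against day 0 and 0.2143 for lungs against culture). The log2 ratio of TRCN0000054348 to TRCN0000054351 was -1.19 ± 0.04 at day 0 (SD, n = 3), -2.78 ± 1.02 in culture (SD, n = 6) and 0.62 ± 0.21 in lungs (SD, n = 2). That of TRCN0000054349 to TRCN0000054351 was -0.91 ± 0.03, -1.78 ± 0.25 and 0.31 ± 0.74 in the same arms. The latter 2 ratios were lower in culture than at day 0 (exact permutation test, two-sided p = 0.02381 for each, the smallest possible, and 0.1786 after adjustment over the 15 tests). With the culture libraries of 1 letter averaged, which counts 8/9 and 9/10 as 1 set of 3, the exact permutation p was 0.1 for each. In lungs both were above their culture and day 0 means, with an exact permutation p of 0.07143 against culture for each, again the smallest possible, and 0.2 with the letters averaged.

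The other genes of the pathway came from a list of 98 RAS to ERK genes. Besides the members, 5 listed genes had hairpins that were tested in all 3 comparisons and are given here, Dusp5, Dusp6, Egfr, Iqgap1 and Myc, with 19 hairpins. In lungs against day 0, 6 of the 19 were called (31.6%, beside 33.8% of all hairpins), 4 higher and 2 lower, a split that was 3 to 3 with pool read totals and for the deposited values. Without the day 0 libraries lettered A 2 were called and without those lettered B 3. In culture against day 0, 12 were called (63.2%, beside 60.6%), 6 higher and 6 lower, a split that was 2 to 8 with pool read totals, 1 to 11 when scaled on the control hairpins and 3 to 8 for the deposited values, in scalings that moved the calls of all hairpins to the lower side as given above. In lungs against culture, 5 were called (26.3%, beside 24.9%), all higher in lungs. These shares lie near those of all hairpins. The last count was 4 or 5 with 0 lower in the other scalings, 2 without the culture libraries lettered B or C, 3 without those lettered A or with the replicate block, 4 higher and 1 lower without the lung libraries lettered B, and 6 higher and 2 lower without those lettered C. The median of the 19 in lungs against culture was 0.42, beside -0.11 over all hairpins. It was 0.24 with pool read totals, 0.72 scaled on the control hairpins, beside 0.30 over all, and 0.00 for the deposited values.

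Those 5 belonged to Dusp5, Dusp6 and Iqgap1. Dusp5 and Dusp6 encode further ERK phosphatases, of the nucleus and the cytoplasm, and Iqgap1 encodes a scaffold that binds ERK pathway kinases. Dusp5 TRCN0000080889 was higher in lungs than in culture by 2.02 (SE 0.41, limma adjusted p = 0.00357) and Dusp5 TRCN0000080888 by 1.04 (SE 0.32, limma adjusted p = 0.0286). Dusp6 TRCN0000350080 was higher by 1.22 (SE 0.27, limma adjusted p = 0.0117). Iqgap1 TRCN0000428346 was higher by 2.09 (SE 0.35, limma adjusted p = 0.0033) and TRCN0000034338 by 0.68 (SE 0.21, limma adjusted p = 0.0364). From day 0 both Iqgap1 hairpins fell in culture, by -2.01 and -1.24, both called, and were at -0.01 and -0.27 in lungs, neither called. The named Dusp5 and Dusp6 hairpins rose in lungs from day 0, by 2.97, 1.47 and 1.27 in the order given, all called. The called Dusp4 hairpin, TRCN0000054351, was lower in lungs than in culture, while the called hairpins of Dusp5 and Dusp6 were higher. These lie in other pools than that Dusp4 hairpin, and the difference between genes was not tested. The hairpins not called went both ways. Dusp5 TRCN0000080890 was at -0.39 and TRCN0000080891 at 1.03, and Dusp6 TRCN0000055040 was at -0.76 and TRCN0000055038 at 0.42. Dusp4 TRCN0000054348, TRCN0000054350 and TRCN0000054349 were at 0.76, 0.28 and -0.55.

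The hairpins with the most similar pattern were found by Pearson's r of log2 levels over the libraries of the pool, given as a description since all hairpins of a pool share libraries and scaling. Over 9 libraries, Nras TRCN0000034390 was most like Kcnk1 TRCN0000069900 (r = 0.986) and Rnf4 TRCN0000040594 (r = 0.953). Over 10 libraries, Nras TRCN0000348697 was most like S100a6 TRCN0000332631 (r = 0.980) and Pcsk6 TRCN0000334329 (r = 0.824), and TRCN0000351826 was most like Kdm5a TRCN0000326118 (r = 0.882) and the same Pcsk6 hairpin (r = 0.839). Braf TRCN0000054346 was most like Cdkn2b TRCN0000042600 (r = 0.894) and Ehd1 TRCN0000093337 (r = 0.877), TRCN0000054345 was most like Pcdh15 TRCN0000094900 (r = 0.925) and Dmd TRCN0000077146 (r = 0.851), and TRCN0000022593 was most like Srrm2 TRCN0000123443 (r = 0.783) and Lrp1b TRCN0000119610 (r = 0.775), each over 9 libraries.

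For Dusp4 the closest hairpins over the 11 libraries of pool 9 were Yme1l1 TRCN0000031200 (r = 0.960) and Vgll4 TRCN0000175905 (r = 0.919) for TRCN0000054351. For TRCN0000054349 they were the same Vgll4 hairpin (r = 0.894) and Myst4 TRCN0000039339 (r = 0.885). For TRCN0000054348 they were Sesn2 TRCN0000087792 (r = 0.680) and Alms1 TRCN0000183842 (r = 0.604). In pool 11, over 9 libraries, TRCN0000054350 was most like Xirp2 TRCN0000217527 (r = 0.877) and Fermt1 TRCN0000193238 (r = 0.861). For the 7 hairpins that shared their pool with another of the same gene, that hairpin was not among the 2 most similar. Each was compared with 50 to 53 other hairpins. How often this holds over all hairpins was not counted, so nothing about the genes is read from it.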

How the data were processed

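The deposited tables list 1 signal per hairpin and library, a read number the authors had normalised. The submitters' processing notes name BWA 0.5.9; how reads were counted and normalised, and the build, is not given in the sources used here. All 27241 values were whole multiples of their library's smallest value within 0.01 reads, so reads were recovered. A hairpin of the pool without a value in a library was counted as 0 reads there. Of 158 samples, 148 had values, and technical runs were summed into 142 libraries. Reads of a pool's targeting hairpins were turned into CPM with TMM (edgeR 4.0.16), and log2(CPM + 1) was tested with limma 3.58.1 (R 4.3.3), with trend and robust estimation, per pool over the 2 arms compared. A hairpin needed a mean of at least 10 reads, and p-values were adjusted by Benjamini-Hochberg, with a threshold of 0.05. Fold changes of rare hairpins depend on the pseudocount. edgeR and DESeq2 1.42.0 on the recovered reads, other scalings, filters, a replicate block and leaving out replicates were alternatives, and the steps were tested on simulated data. Ratios of 2 hairpins were compared by exact permutation tests. Replicate letters were checked as pairs by the correlation of their deviations. The members, the pathway list and the tests were chosen with earlier results of these data known. Named here are all member hairpins, the 2 hairpins most like each, and pathway genes with a hairpin called in lungs against culture, at most 6 by the smallest adjusted p. Other pathway genes were described where a hairpin was tested in all 3 comparisons, a limit set after the data were seen; some items are not reported here.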

Additional observations from a re-analysis of the deposited data

Results flagged for a closer look

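The lung and culture arms changed differently for 4 hairpins by the direct test of lungs against culture: Nras TRCN0000034390 by 2.77, Braf TRCN0000054346 by 1.17, Dusp4 TRCN0000054351 by -2.64 and Nras TRCN0000348697 by -2.72 on the log2 scale. Their values and errors stand in the report. In the 5 groups of 4 to 10 culture libraries that were examined, 0 held a library far from the others by Dixon's limit.

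Reads of 5 members also appeared in libraries of pools that do not hold them, above the highest share in any day 0 library of another pool. Nras TRCN0000034390 reached 0.0223% of reads (1415 reads) in lung library 5A, against 0.00411% at day 0. Dusp4 TRCN0000054351 reached 0.00353% in lung library 4C, against 0.00184%. Dusp4 TRCN0000054349 reached 0.00306% in lung library 16D, against 0.00108%. Dusp4 TRCN0000054348 reached 0.00229% in culture library 12B, against 0.00119%, and Braf TRCN0000054346 reached 0.00179% in culture library 6/7A, against 0.00104%. The source of these reads was not tested.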

How the results depend on the processing

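Among alternatives for single hairpins that changed the libraries or the processing of the hairpin's pool, 437 stayed on the same side of the threshold, 33 lost a call, 19 gained one and 4 reversed a value; in 21 of the 437 the sign differed with neither value called. The hairpin ratios could not pass the adjustment in designs of this size, so their 175 alternatives say nothing about stability; 3 had another sign. The count of members called in lungs against day 0 was 5, and it was 3 scaled on the control hairpins, for the deposited values and with the replicate block, and 2 to 7 when replicates were left out. Culture against day 0 had 8 calls, 5 with pool read totals and 6 to 8 when replicates were left out, and lungs against culture had 4, and 3 to 5. Same-lettered libraries deviated together in every comparison in none of the members' pools, so the letters were not treated as pairs. All letters correlated positively in pool 4 for both comparisons with day 0 (r = 0.12 to 0.35) and in pool 6 for lungs against culture (r = 0.14 to 0.41). They also did in pools 2 and 9 for culture against day 0 (r = 0.05 to 0.59). With the replicate block, Dusp4 TRCN0000054348 (1.44, limma adjusted p = 0.276) and TRCN0000054350 (-1.76, limma adjusted p = 0.0563) lost their calls in lungs. The reversed values were Braf TRCN0000054346 in culture, at -0.11 with pool read totals, -0.58 scaled on the control hairpins and -0.46 for the deposited values, and Nras TRCN0000348697 in lungs, from -0.93 to 0.74 when a lung replicate was left out. Beyond the number of libraries, the cause was not tested. Lung libraries 6A and 16D held 40555 and 42538 reads of their own pool's targeting hairpins, which limits the values that rest on them.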
